A study of Mus musculus with 6 samples.

Results

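Hyaluronan is a long sugar polymer of the extracellular matrix, and the genes described here make it, hold it in place, sense it and break it down. The list names 10 genes, 3 hyaluronan synthases (*Has1*, *Has2*, *Has3*), 2 link proteins (*Hapln1*, *Hapln3*), 2 large proteoglycans that bind hyaluronan (*Vcan*, *Acan*), the cell surface receptor *Cd44* and 2 hyaluronidases (*Hyal1*, *Hyal2*), out of 18193 genes with a probe set of their own on the arrays. They were chosen from the measured difference between knockout and wild type on these same arrays, so the differences between genotypes below are a description and carry no test. Every probe set that the platform table assigns to 1 listed gene alone was taken. This gave 23 probe sets for 9 genes: 8 for *Vcan*, 4 each for *Hapln1* and *Cd44*, 2 for *Has2* and 1 for each of *Has1*, *Has3*, *Hapln3*, *Acan* and *Hyal2*. *Hyal1* had no probe set of its own, because both of its probe sets are shared with the neighbouring gene *Naa80*.

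The samples were tail tip fibroblasts of neonatal mice, 3 lacking the long noncoding RNA *Hotair* and 3 wild type, all backcrossed to C57BL6, with total RNA on 1 Affymetrix expression array each. The labels describe the knockout only as *Hotair* knockout and give no age in days, sex or culture passage. No probe set was named for *Hotair*, so the labels were not checked against their target. Values are log2 summaries by RMA, so a step of 1 is a doubling. A level is not compared between probe sets, because probes differ in how strongly they bind. The number of arrays limits the precision. In bulk RNA, fewer cells that express a gene and less RNA per cell cannot be told apart.

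Hyaluronan is made at the plasma membrane by the synthases from 2 activated sugars and is pushed out of the cell as it grows. Link proteins and proteoglycans such as versican (*Vcan*) and aggrecan (*Acan*) bind along the chain and build a hydrated coat, which is loose in embryonic and healing connective tissue and stiff in cartilage. CD44 anchors the coat to the cell, and hyaluronidases cut the chains. In skin, fibroblasts are a main source of hyaluronan, chiefly through *Has2*.

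Arrays of replicate 1 stood apart in both genotypes. The leading principal component held 48.9% of the variance and placed them at 82.7 (knockout) and 114.7 (wild type), against −74.7 and −39.3 for the other knockout arrays and −42.9 and −40.5 for the other wild-type arrays. Proliferation genes were low there, with a median of −1.43 (knockout) and −1.85 (wild type) relative to each gene's mean over the 6 arrays, against 0.91 and 1.11 on the other knockout arrays and 0.92 and 0.52 on the other wild-type arrays. Knockout replicate 1 also had the widest gap between 3′ and 5′ control probe sets of *Gapdh* (0.75, against −0.21 to −0.03 on the 5 other arrays), a measure of RNA degradation. The median level of 14 leukocyte markers was 6.76 on that array, against 5.07 and 4.97 on the other knockout arrays and 4.74 to 5.46 on the wild-type arrays, with *Tyrobp* at 9.14 and the pan-leukocyte *Ptprc* at 4.23. Of these 14 markers 12 differed above 0 and 2 below, with a median difference of 0.31, or 0.02 without replicate 1. Unlike most of the list, *Cd14* was lower in knockout, at 7.89, 5.87 and 5.75 against 8.17, 8.35 and 8.89 in wild type. It was called lower without replicate 1. All 14 measured fibroblast markers lay above the middle of the array's distribution on average, but the fibroblast surface protein *Thy1* ran at 11.71, 10.54 and 10.28 in knockout and at 12.15, 4.65 and 7.17 in wild type. Also of that list, *Fap* ran at 5.43, 9.26 and 9.66 in knockout and at 6.56, 4.54 and 6.19 in wild type, and was called higher without replicate 1. *Pdgfra* ran at 9.93, 12.50 and 12.45 in knockout and at 8.62, 9.99 and 11.34 in wild type. Without replicate 1, *Thy1*, *Fap* and *Pdgfra* differed by 4.50, 4.10 and 1.81. The fibroblast list split into 10 above 0 and 4 below, with a median difference of 0.21, or 0.23 without replicate 1. The 4 below were *Vim* (−0.24), *Fn1* (−0.18), *S100a4* (−0.09) and *Lox* (−0.09). Differences are therefore also given without replicate 1 for most genes described, and the part of these array differences in them was not tested.

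*Hapln1* and *Vcan* carried the widest differences, in opposite directions, and they are direct neighbours on chromosome 13, with 0 annotated protein-coding genes between them. Their promoters, from the RefSeq annotation of GRCm38.p6, are printed to show the start regions of this neighbouring pair. Each is 300 bases around the gene's start, read 5′ to 3′ on the gene's strand, with capitals for the CCAAT box, the motif CCAAT or its reverse complement. *Hapln1* lies on the plus strand (chr13:89540386-89540685) and *Vcan* on the minus strand (chr13:89742463-89742762).
Hapln1: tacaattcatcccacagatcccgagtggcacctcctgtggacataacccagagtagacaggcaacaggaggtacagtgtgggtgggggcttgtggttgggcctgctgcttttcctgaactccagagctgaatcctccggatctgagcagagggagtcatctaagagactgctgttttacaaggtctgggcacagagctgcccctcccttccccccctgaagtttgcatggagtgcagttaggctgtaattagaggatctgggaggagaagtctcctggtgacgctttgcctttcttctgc
Vcan: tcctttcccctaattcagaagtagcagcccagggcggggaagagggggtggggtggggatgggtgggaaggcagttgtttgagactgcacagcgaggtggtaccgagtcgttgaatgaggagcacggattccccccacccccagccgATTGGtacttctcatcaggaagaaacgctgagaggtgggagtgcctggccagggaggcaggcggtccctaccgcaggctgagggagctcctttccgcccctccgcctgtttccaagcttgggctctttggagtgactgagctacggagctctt

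The *Vcan* window holds 1 CCAAT box on the reverse strand and the *Hapln1* window holds 0. Of all 32851 promoters of this length in the table, 37.4% hold that motif on either strand. Neither window holds the TATA box (TATAAA), the AP-1 motif (TGANTCA) or the TEAD motif (GGAATG), searched on both strands, which are in 13.6%, 7.81% and 14.7% of all promoters. The table held entries for 8 of the 10 genes, all but *Has2* and *Has3*.

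Over all 6 arrays, 0 of the 23 probe sets were called between genotypes by limma, and 0% of all 45037 probe sets were called (Benjamini-Hochberg at 0.05, where the smallest adjusted p was 0.924). Without adjustment, 3 of the 23 and 2406 of all had a p under 0.05. All 3 knockout values lay above all 3 wild-type values for 3 of the 23 probe sets, against 4.48% of all probe sets. They lay below for 1 of the 23, against 4.43% of all. Differences lay above 0 for 10 probe sets and below 0 for 13, with a median of −0.04, and the median of all probe sets was −0.00. The list as a whole thus had no common direction, and its members are described by role.

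**Figure D1:**
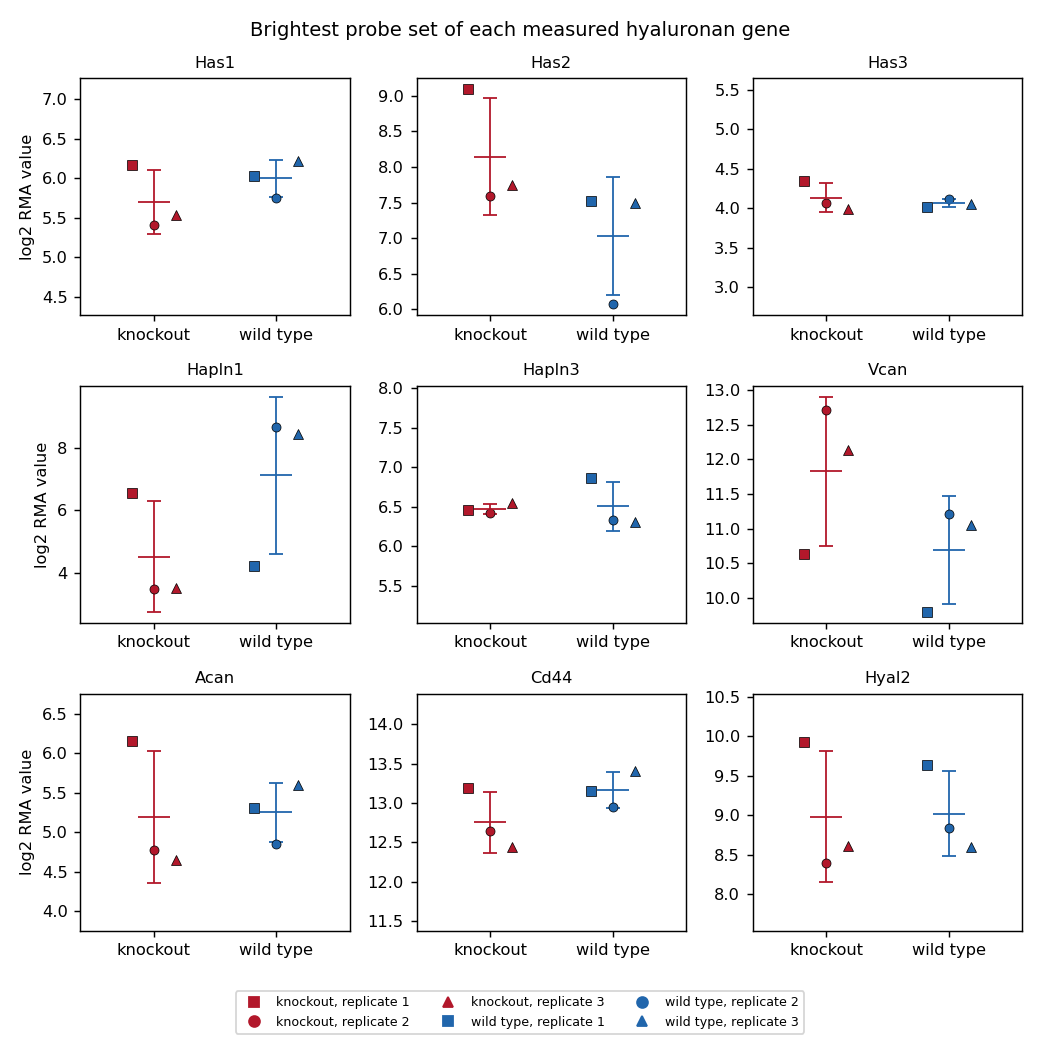
Each panel plots 1 gene's brightest probe set as log2 RMA values, knockout left and wild type right, with squares, circles and triangles for replicates 1, 2 and 3 and bars for the mean ± SD (n = 3 each). Panels have their own range of values. The groups separate for Has2, overlap for the 8 other genes, and for Hapln1 and Vcan replicate 1 lies far from replicates 2 and 3.

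*Has2*, the main hyaluronan synthase of fibroblasts and embryonic mesenchyme, was higher in knockout. Its brighter probe set (1449169_at) measured 9.09, 7.59 and 7.75 in knockout replicates 1 to 3 and 7.53, 6.07 and 7.50 in wild type. All knockout values lay above all wild-type values, though knockout replicate 2 exceeded wild-type replicate 1 by little. Means were 8.15 ± 0.82 in knockout and 7.03 ± 0.83 in wild type (SD, n = 3), a difference of 1.12 ± 0.57 (SE), or 2.17-fold. Leaving out knockout replicate 1 gave 0.64, and leaving out wild-type replicate 2 gave 0.63.

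The second *Has2* probe set (1418678_at) overlapped between genotypes. It measured 8.93, 6.99 and 6.85 in knockout and 8.21, 5.16 and 6.82 in wild type, a difference of 0.86 ± 0.93 (SE). Within replicate numbers, knockout minus wild type was 1.57, 1.52 and 0.25 for the first probe set and 0.72, 1.84 and 0.03 for the second, so replicate 3 showed little or no difference. Without replicate 1 of both genotypes the differences were 0.89 ± 0.50 and 0.93 ± 0.58 (SE). Wild-type replicate 2 was the lowest array for both probe sets.

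The other synthases differed little. *Has1*, which makes hyaluronan in inflamed and stressed cells, measured 6.16, 5.41 and 5.53 in knockout and 6.03, 5.75 and 6.22 in wild type. The groups overlapped, and the difference was −0.30 ± 0.25 (SE), or −0.52 ± 0.21 without replicate 1. With single arrays left out it was −0.53 (knockout replicate 1), −0.15 (knockout replicate 2) and −0.19 (wild-type replicate 3). *Has3*, known for making shorter chains, was dim on every array, between 3.99 and 4.34 in knockout and between 4.02 and 4.12 in wild type. Its difference was 0.07 ± 0.14 (SE), or −0.06 ± 0.14 without replicate 1.

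*Hapln1*, the cartilage link protein that locks proteoglycans onto hyaluronan, had the widest differences of the list. Its brightest probe set (1438020_at) measured 6.57, 3.48 and 3.52 in knockout and 4.22, 8.68 and 8.46 in wild type. Knockout replicates 2 and 3 were the lowest of the 6 arrays and wild-type replicates 2 and 3 the highest, while in replicate 1 the knockout array was higher. Means were 4.52 ± 1.77 in knockout and 7.12 ± 2.51 in wild type (SD, n = 3), a difference of −2.60 ± 1.48 (SE).

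The 3 other *Hapln1* probe sets were likewise highest in wild-type replicates 2 and 3. The probe set 1421633_a_at measured 5.86, 4.05 and 4.36 in knockout and 5.44, 7.92 and 6.89 in wild type. For 1426295_at the values were 4.52, 3.97 and 4.14 in knockout and 4.04, 6.84 and 6.68 in wild type. For 1426294_at they were 4.10, 2.64 and 3.01 in knockout and 3.33, 5.67 and 5.40 in wild type.

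On 3 of the 4 probe sets the arrays of replicate 1 lay between the other knockout and the other wild-type arrays, and on 1426295_at wild-type replicate 1 lay among the low knockout arrays. Their differences were −2.60, −1.99, −1.64 and −1.55 over all arrays. By replicate number, 1438020_at differed by 2.35, −5.20 and −4.94, and 1421633_a_at by 0.42, −3.87 and −2.53. Without replicate 1 the 4 differences were −5.07 ± 0.15, −3.20 ± 0.38, −2.70 ± 0.15 and −2.71 ± 0.21 (SE). No fold is given, because the knockout values were dim. Leaving out wild-type replicate 1 alone, the difference of 1438020_at was −4.05. Probe sets of 1 gene share their RNA and are not independent of each other.

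*Vcan*, the versican core protein and the main large proteoglycan of loose connective tissue, was higher in knockout within every replicate number on its bright probe sets. The brightest (1421694_a_at) measured 10.63, 12.71 and 12.14 in knockout and 9.79, 11.22 and 11.05 in wild type. The groups overlapped only through knockout replicate 1, which was low. Means were 11.83 ± 1.08 in knockout and 10.69 ± 0.78 in wild type (SD, n = 3), a difference of 1.14 ± 0.65 (SE), or 2.20-fold. Leaving out knockout replicate 1 gave 1.74, and leaving out knockout replicate 2 or wild-type replicate 1 gave 0.69.

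The probe set 1427256_at measured 10.40, 12.36 and 12.05 in knockout and 9.36, 11.26 and 10.85 in wild type. The probe set 1427257_at measured 9.26, 11.64 and 11.38 in knockout and 8.28, 10.26 and 10.46 in wild type. As on the first, both had the 2 arrays of replicate 1 lowest and the knockout array above the wild-type array in each number. By replicate number the differences were 0.83, 1.50 and 1.08 for the first probe set, 1.04, 1.10 and 1.20 for the second and 0.97, 1.38 and 0.92 for the third. Without replicate 1 they were 1.29 ± 0.24, 1.15 ± 0.22 and 1.15 ± 0.17 (SE). With replicate number in the model, the SEs over all 6 arrays were 0.18, 0.13 and 0.16.

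The 5 other *Vcan* probe sets were dim. Of these, 1447887_x_at measured 5.08, 5.004 and 5.85 in knockout and 3.80, 4.21 and 4.78 in wild type, a difference of 1.05 ± 0.34 (SE), and its groups did not overlap. Its suffix marks probes that may also match other transcripts. The remaining 4 lay between 3.35 and 4.56 on all arrays, with differences of −0.15 to 0.26, and 1459767_x_at was the only one of the 8 below 0. The knockout values of 1447586_at also all lay above the wild-type values, by 0.26 on average.

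**Figure D2:**
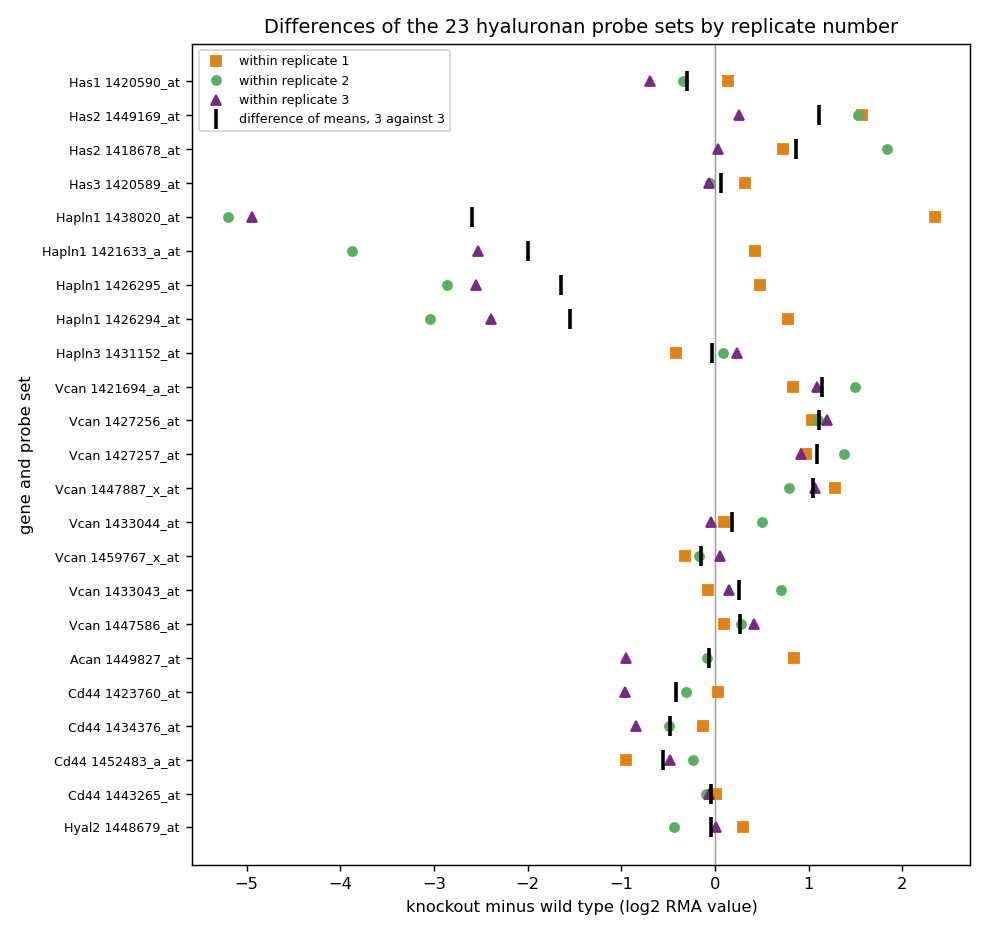
Knockout minus wild type in log2 RMA value is plotted for the 23 probe sets, down the page by gene, within replicate 1 (squares), 2 (circles) and 3 (triangles), with a black bar for the difference of the means of 3 against 3 arrays. The 4 Hapln1 probe sets lie below 0 in replicates 2 and 3 and above 0 in replicate 1, while the 4 upper Vcan probe sets lie above 0 in all 3.

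The opposite differences of the neighbouring genes were seen on the arrays of replicates 2 and 3. There the knockout arrays had *Vcan* at 12.71 and 12.14 with *Hapln1* at 3.48 and 3.52, and the wild-type arrays had *Vcan* at 11.22 and 11.05 with *Hapln1* at 8.68 and 8.46. In replicate 1 both genes were higher in the knockout array, with *Vcan* at 10.63 against 9.79 in wild type and *Hapln1* at 6.57 against 4.22 in wild type. The wild-type array of replicate 1 thus had low values of both.

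**Figure D3:**
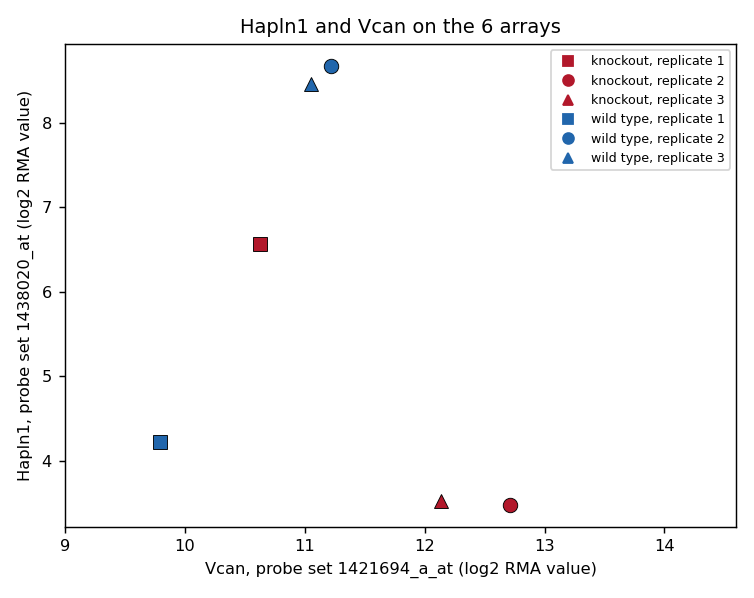
Each point is 1 array, with the log2 RMA value of Vcan across and of Hapln1 up, in red for knockout and blue for wild type. Knockout replicates 2 and 3 lie at the lower right, wild-type replicates 2 and 3 at the top, and the 2 arrays of replicate 1 to the left of both.

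The other neighbouring pair of link protein and proteoglycan, *Hapln3* and *Acan* on chromosome 7, had smaller differences. *Hapln3*, a link protein of many tissues, measured 6.45, 6.42 and 6.54 in knockout and 6.87, 6.33 and 6.31 in wild type. The groups overlapped, with a difference of −0.03 ± 0.19 (SE), or 0.16 ± 0.14 without replicate 1. *Acan*, the aggrecan core protein of cartilage, measured 6.15, 4.77 and 4.65 in knockout and 5.30, 4.85 and 5.60 in wild type, a difference of −0.06 ± 0.45 (SE). Its highest value was on knockout replicate 1, and without replicate 1 of both genotypes the difference was −0.52 ± 0.29 (SE). Cartilage markers, which would accompany *Hapln1* and *Acan* in cartilage cells, had medians of 5.60, 4.71 and 5.33 in knockout and 5.32, 4.95 and 5.14 in wild type over 15 genes. Of these, 10 differed above 0 and 5 below, with a median difference of 0.04, or 0.03 without replicate 1. Collagen II (*Col2a1*), which defines cartilage, stayed between 5.05 and 5.40 in knockout and between 4.69 and 5.10 in wild type. One of the 15, the chondrocyte factor *Sox5*, ran at 6.40, 4.71 and 5.45 in knockout and 5.44, 8.17 and 7.86 in wild type, so that wild-type replicates 2 and 3 were highest, as for *Hapln1*. Without replicate 1 it differed by −2.93 ± 0.30 (SE) and was called lower. Another, the chondrocyte factor *Sox9*, was at 7.53, 7.15 and 7.66 in knockout and 7.10, 7.62 and 9.72 in wild type, a difference of −0.70 ± 0.68, or −1.27 ± 0.74 without replicate 1 (SE). Of 15 measured keratinocyte markers, 6 differed above 0 and 9 below, with a median difference of −0.03, or 0.03 without replicate 1. Their median levels by array were 5.49, 4.83 and 5.23 in knockout and 6.13, 5.76 and 5.53 in wild type. Of that list, the desmosome gene *Dsp* measured 5.49, 3.58 and 3.70 in knockout and 6.43, 6.74 and 6.18 in wild type. *Dsp* differed by −2.20 ± 0.54 (SE) and was called lower without replicate 1. *Perp*, also of that list, was at 7.84, 3.71 and 3.61 in knockout and 7.51, 7.85 and 5.96 in wild type. It differed by −2.05 ± 1.26, or −3.25 ± 0.65 without replicate 1 (SE). *Dsp* and *Perp* had the widest differences of the list, while its members *Krt5*, *Krt14* and *Trp63* differed by 0.14, −0.01 and 0.13. The part of these markers in the *Hapln1* values was not tested.

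*Cd44*, the main hyaluronan receptor, was slightly lower in knockout on its 3 bright probe sets. The brightest (1423760_at) measured 13.19, 12.64 and 12.44 in knockout and 13.15, 12.95 and 13.40 in wild type, a difference of −0.41 ± 0.24 (SE), and leaving out knockout replicate 1 gave −0.63, knockout replicate 3 −0.25. The second (1434376_at) measured 12.52, 11.97 and 11.95 in knockout and 12.65, 12.46 and 12.79 in wild type, a difference of −0.48 ± 0.20. In both the groups overlapped only through knockout replicate 1. The third (1452483_a_at) measured 9.75, 9.81 and 9.76 in knockout and 10.70, 10.04 and 10.24 in wild type, and here every knockout value lay below every wild-type value (−0.55 ± 0.19). Without replicate 1 the differences were −0.64 ± 0.21, −0.66 ± 0.17 and −0.36 ± 0.15 (SE). The fourth, 1443265_at, was dim on all arrays and differed by −0.05.

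*Hyal2*, the membrane-anchored hyaluronidase that starts the breakdown of long chains, measured 9.93, 8.40 and 8.61 in knockout and 9.63, 8.84 and 8.59 in wild type. The difference was −0.04 ± 0.49 (SE), or −0.21 ± 0.17 without replicate 1, and in both genotypes the replicate 1 array was the highest.

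Leaving out replicate 1 of both genotypes, 2 arrays stood against 2. Then 1 of the 23 probe sets was called higher by limma, *Vcan* 1427257_at, against 2.01% of all probe sets. The 4 probe sets of *Hapln1* were called lower, against 2.06% of all. As the genotype contrast chose the members, nothing is read from these counts. The median difference was −0.06 for the 23 and 0.02 for all.

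Replicate number, which the choice of members did not use, was tested with genotype in the model. By limma's moderated F test 0 of the 23 probe sets and 0% of all 45037 passed after adjustment, with 2 residual degrees of freedom. At an unadjusted p under 0.05 there were 7 of the 23, against 17.1% of all probe sets. These 7 belong to 3 genes, 4 to *Vcan*, 2 to *Has2* and 1 to *Hyal2*. *Vcan* 1421694_a_at averaged 10.21 on the replicate 1 arrays and 11.78 on the 4 others (adjusted p = 0.10 by limma), and 1427257_at averaged 8.77 on replicate 1 and 10.94 on the others (adjusted p = 0.06 by limma). *Has2* ran the other way, at 8.31 on replicate 1 and 7.23 on the others for 1449169_at (adjusted p = 0.27 by limma), and so did *Hyal2*, at 9.78 and 8.61 (adjusted p = 0.16 by limma). *Hapln1*, whose genotype order turned round in replicate 1, averaged 5.39 and 6.03.

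Pearson's r over the 6 arrays is given as a description across 6 values that share their arrays. The top r of many genes is high by selection. For the 2 genes with the largest absolute differences, the genes of most similar pattern were picked from the 18193 with a probe set of their own. For *Hapln1* these were *Frk*, a Src-family kinase (r = 0.995), the ribosomal protein gene *Rps26* (0.992), *Wdcp* (0.991) and *Tjp1*, a tight junction protein (0.990). *Frk* measured 7.16, 5.10 and 5.24 in knockout and 6.03, 8.89 and 8.71 in wild type. A high r leaves size aside. Knockout minus wild type was −2.04 for *Frk*, −0.18 for *Rps26*, −0.17 for *Wdcp* and −0.61 for *Tjp1*, against −2.60 for *Hapln1*. For *Vcan* they were *Pms2*, a DNA mismatch repair protein (0.992), *Cept1*, an enzyme of phospholipid synthesis (0.991), *Stard9* (0.991) and *Soga1* (0.990). These 4 differed by 0.42, 0.56, 1.26 and 0.35, against 1.14 for *Vcan*.

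Other genes of the hyaluronan pathway were taken from 3 lists of binding proteins, breakdown enzymes and enzymes of sugar supply. The 41 with a probe set split into 20 above 0 and 21 below, their median difference was −0.01, and 0 were called (0% of all probe sets). All knockout values lay above the wild-type values for 3 (*Ptx3*, *Tnfaip6* and *Uap1*) and below for 1 (*Impg1*), against 4.48% and 4.43% of all probe sets. Among the 23 binding proteins 13 lay above 0, among the 9 breakdown enzymes 3, and among the 9 supply enzymes 4.

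Both of the widest differences above 0 belonged to proteins that cross-link hyaluronan. *Ptx3*, the long pentraxin that ties hyaluronan chains into a stable coat around the egg, measured 10.47, 11.61 and 11.25 in knockout and 8.86, 4.48 and 8.38 in wild type. Every knockout value lay above every wild-type value, and the difference was 3.87 ± 1.19 (SE), resting most on wild-type replicate 2. Its second probe set (1456903_at) differed by 0.66 ± 0.27, and measured 5.27, 5.79 and 6.19 in knockout and 5.16, 4.87 and 5.25 in wild type.

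*Tnfaip6*, which encodes the enzyme that transfers heavy chains onto hyaluronan (TSG-6), measured 5.50, 7.69 and 6.74 in knockout and 4.77, 4.34 and 5.07 in wild type. The groups did not overlap, and the difference was 1.91 ± 0.56 (SE). Without replicate 1 the differences were 5.01 ± 1.32 for *Ptx3* and 2.51 ± 0.42 for *Tnfaip6* (SE), and neither was called. Of the heavy chain genes themselves, *Itih5* differed by 0.35 and *Itih2* by −0.35, or by 0.59 and −1.09 without replicate 1. The next 2 above 0 were *Gfpt2*, an enzyme of glucosamine supply (0.54 ± 0.78, SE), and *Tlr2*, a receptor that hyaluronan fragments are known to engage (0.49 ± 0.21), at 0.69 ± 0.15 and 0.59 ± 0.18 without replicate 1.

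The 4 widest differences below 0 were those of *Hk2*, *Gusb*, *Layn* and *Cemip*. *Hk2*, a hexokinase, differed by −1.33 ± 0.86 (SE), with wild-type replicate 3 at 12.51 and wild-type replicates 1 and 2 at 10.28 and 9.33. Without replicate 1 it differed by −1.93 ± 1.08 (SE). *Gusb*, the lysosomal glucuronidase that trims hyaluronan fragments, differed by −0.70 ± 0.60, and its second probe set (1430332_a_at) by 0.09. Without replicate 1 the first was at −1.13 ± 0.14 (SE) and was called lower, while the second was at 0.54 ± 0.19, the opposite direction. It was the 1 gene of the 41 called then, against 2.06% of all probe sets called lower. *Layn*, the hyaluronan receptor layilin, differed by −0.67 ± 0.47, or by −1.10 ± 0.37 without replicate 1. *Cemip*, a hyaluronan-degrading protein of skin fibroblasts, measured 9.61, 5.96 and 5.31 in knockout and 8.45, 7.03 and 7.18 in wild type, a difference of −0.59 ± 1.17 (SE). The replicate 1 arrays were the highest in both genotypes, and without them *Cemip* differed by −1.47 ± 0.26.

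**Figure D4:**
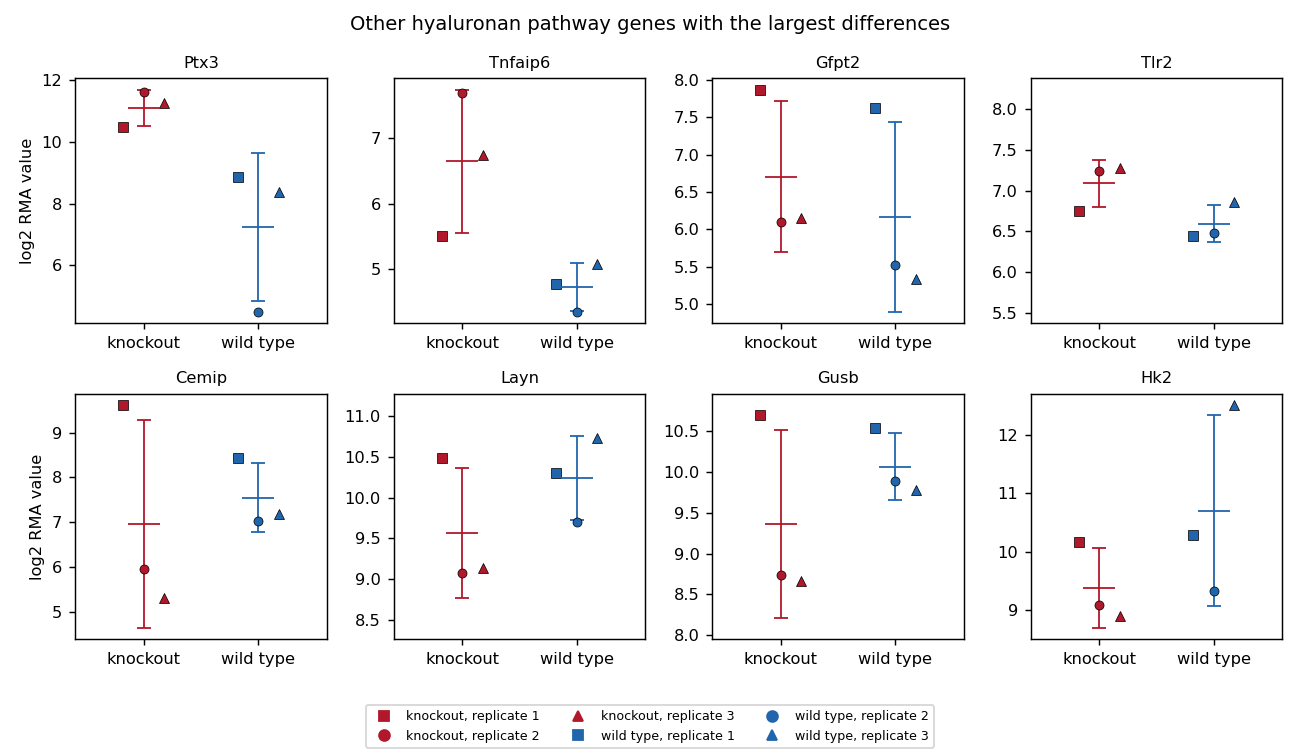
The 8 hyaluronan pathway genes outside the list of 10 with the largest differences are plotted as log2 RMA values, knockout left and wild type right, with points for the arrays and bars for the mean ± SD (n = 3 each). Panels have their own range of values. The knockout arrays lie above all wild-type arrays for Ptx3 and Tnfaip6 and overlap them for the 6 other genes.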

How the data were processed

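Total RNA of 6 samples, 3 knockout and 3 wild type, was measured on 1 array each. The authors deposited log2 values per probe set. The submitters' processing notes name RMA and R 2.11.1, and the annotation package is not given in the sources used here. Because RMA forces the arrays to 1 distribution, it hides a change in total RNA, and it compresses differences of dim probe sets. Of 45101 probe sets, 64 controls were left out. Probe sets were named from the platform table, which gave 34945 of the others 1 gene, 932 several and 9160 none. All 10 listed genes matched the RefSeq table of GRCm38.p6, used for names, gene order and promoters.

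The genotype comparison used limma 3.58.1 (R 4.3.3) on the whole table of 45037 probe sets (lmFit, eBayes, genotype as only term, Benjamini-Hochberg at 0.05), and replicate numbers by its moderated F test in a model with genotype. SEs are limma's moderated ones, from the fit with genotype only unless stated. The fit was also run on simulated data with independent noise on each array, unlike the shared differences of replicate 1 here. Nothing about these data is read from it. Outside the list, a gene is its brightest single-gene probe set. Named were the 10 genes, the 4 widest differences in each direction among other hyaluronan genes and the 4 most similar genes for 2 members. *Sox5*, *Col2a1*, *Sox9*, *Dsp*, *Perp*, *Krt5*, *Krt14*, *Trp63*, *Uap1*, *Impg1*, *Itih2*, *Itih5*, array checks and neighbours were named after their values were seen. Members and lists were chosen with earlier results of these data known. The labels do not say whether samples came from separate animals, so the spread may not be that between animals. An exact permutation test of 3 against 3 cannot go below 0.1.

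The labels number the arrays 1 to 3 in both genotypes. Same-numbered arrays deviated together from their group means, with correlations of 0.50, 0.49 and 0.25, so by the rule set for this check the numbers pair them; the first pair stands apart and contributes to this, and wild-type replicate 3 correlated better with knockout replicate 2 (0.33) than with its own number. Alternatives were the replicate block, other eBayes settings, a filter on dim probe sets, renormalisation, centring, array weights, 1 probe set per gene and leaving out arrays.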

Additional observations from a re-analysis of the deposited data

How the results depend on the processing

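With the replicate block, limma called 0 of all probe sets and 0 of the 23, as over all arrays without it. The block changed the SEs, from 0.65 to 0.18 for *Vcan* 1421694_a_at and from 0.57 to 0.32 for *Has2* 1449169_at. For *Hapln1* 1438020_at the SE rose from 1.48 to 1.67. Leaving out replicate 1 of both genotypes called 1836 probe sets, 5 of them among the 23. Leaving out 1 array called 0 to 48 of all, the 48 without knockout replicate 1, and 0 of the 23. The median difference of the 23 ran from −0.116 to 0.140 when 1 array was left out, with 0.045 without wild-type replicate 1. Genes with small differences changed sign. *Has3* was at −0.043 with array weights and −0.059 without replicate 1, and at −0.036 to 0.140 with 1 array left out. *Hapln3* was at 0.13 with array weights and 0.16 without replicate 1, and at −0.13 to 0.15 with 1 array left out. *Acan* ran from −0.54 to 0.21 and *Hyal2* from −0.52 to 0.26 with 1 array left out. *Vcan* was at −0.15 on 1459767_x_at. *Has1*, *Has2*, *Hapln1* and *Cd44* kept their direction in every alternative run, but not their size. With 1 array left out, *Has1* ran from −0.53 to −0.15, *Has2* from 0.63 to 1.39, *Hapln1* from −4.05 to −1.82, *Cd44* from −0.63 to −0.25 and *Vcan* from 0.69 to 1.74. *Hapln1* was at −4.38 with array weights. Between replicate numbers, 497 probe sets and 1 of the 23 were called with trend and robust eBayes, 171 with the filter on dim probe sets, 72 with centring and 249 with 1 probe set per gene, against 0 in the report's setting. Dim probe sets, 10 of the 23 below the median of all, limit what can be seen of *Has3*, *Acan* and the lower probe sets of *Vcan* and *Hapln1*.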

Other observations

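Genes beside the *Hapln1* and *Vcan* pair on chromosome 13 were looked at after the values of the pair were seen. *Edil3*, a secreted integrin ligand of the matrix and the next measured gene on the *Hapln1* side, measured 9.51, 4.54 and 6.04 in knockout and 8.56, 9.25 and 8.999 in wild type. Knockout replicates 2 and 3 were again lowest, while knockout replicate 1 was the highest array. Over all arrays the groups overlapped, with a difference of −2.24 ± 1.24 (SE). Without replicate 1 the difference was −3.83 ± 0.53 (SE), which limma called lower, as it did 2.06% of all probe sets. The other 5 measured genes of the 3 on each side, *Rasa1*, *Cox7c*, *Xrcc4*, *Tmem167* and *Atg10*, differed by −0.34 to 0.34 over all arrays, and 0 of them were called without replicate 1. Beside *Hapln3* and *Acan* on chromosome 7, *Isg20* and *Aen* differed by −1.52 ± 0.61 and −1.07 ± 0.64 (SE), or by −2.34 ± 0.50 and −1.55 ± 0.26 without replicate 1. Neither was called without replicate 1. The other measured genes of the 3 on each side there, *Det1*, *Mfge8*, *Abhd2* and *Rlbp1*, differed by 0.04, −0.24, −0.35 and 0.06 over all arrays.

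The 2 probe sets shared by *Naa80* and *Hyal1* cannot be assigned to either gene. One measured 7.68, 6.14 and 6.74 in knockout and 7.33, 6.70 and 8.22 in wild type, and the other 8.19, 6.64 and 6.28 in knockout and 7.54, 7.19 and 9.24 in wild type. The differences were −0.56 ± 0.53 and −0.95 ± 0.72 (SE), with overlapping groups, or −1.02 ± 0.56 and −1.76 ± 0.71 without replicate 1.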
